A study of Mus musculus with 12 samples.

Results

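The snoRNA host genes were read in hippocampal RNA of TIF-IACaMKCreERT2 mutant mice and their controls. The set holds 8 genes, Snhg16, Gas5, Snhg1, Snhg3, Snhg6, Snhg8, Snhg11 and Snhg12, and its probes are all those whose current gene symbol is one of these names. Of the 45135 probes of the array, 8 carried such a name, and they covered 5 of the 8 genes, against 19031 genes named in all. No probe was named for Snhg3, Snhg6 or Snhg8, which were not measured here. The set was chosen because Snhg16 was among the transcripts raised in the mutants, so the difference of Snhg16 between genotypes is given as a description without a test, and tests were kept for the other members.

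Mutants were TIF-IA flox/flox mice of the C57Bl/6N strain carrying CaMKCreERT2, a tamoxifen-activated Cre recombinase driven by the promoter of the calcium/calmodulin-dependent kinase II gene of forebrain excitatory neurons. Controls were TIF-IA flox/flox littermates without Cre according to the methods, and wild type according to the labels. Both genotypes received tamoxifen at 2 months of age, and the hippocampus was taken 4 weeks later. RNA came from whole hippocampal sections of 6 mutants and 5 controls on 12 arrays, with mutant 6 hybridized on 2 arrays that were averaged. Glia, vessels and interneurons in these sections keep an intact TIF-IA gene, and in bulk RNA fewer cells of a type cannot be told apart from less RNA per cell. Mice of both sexes were used in the study, and the sex of each animal on the arrays was not used here.

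Box C/D and H/ACA small nucleolar RNAs (snoRNAs) guide the methylation and pseudouridylation of ribosomal RNA. In mammals most of them are cut out of introns of longer host transcripts, either of protein-coding genes of the translation machinery or of noncoding snoRNA host genes (the Snhg family and Gas5). The spliced exons of many noncoding hosts begin with a run of pyrimidines, as do messages of ribosomal proteins, and are short-lived because nonsense-mediated decay removes them, so that a host transcript level and the level of its snoRNAs need not move together. TIF-IA, encoded by Rrn3, is the factor that lets RNA polymerase I start transcription of ribosomal RNA, the substrate that snoRNAs modify.

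The hosts differ in what they carry. In the RefSeq annotation of GRCm38.p6, 29 snoRNA genes lay within the borders of the 8 host genes, counted by position because the gene table holds no strand. Snhg16 (chr11:116671660-116675798) held Snord1a, Snord1b and Snord1c, all box C/D guides. Gas5 (chr1:161034601-161038539) held 8, among them Snord47, and Snhg1 (chr19:8723487-8726326) held 8, among them Snord22. Snhg12 (chr4:132308678-132311024) held 4, the H/ACA guides Snora16a, Snora44 and Snora61 and the box C/D guide Snord99. Snhg3 (chr4:132351933-132353686) lies on the same chromosome as Snhg12 and held Snora73a and Snora73b. Snhg6 (chr1:9942025-9944118) held Snord87, and Snhg8 (chr3:123507552-123508336) held Snora24. Snhg11 (chr2:158375713-158386474), a noncoding RNA known for its expression in neurons, is the longest of the 8 at 10762 bases and held 2 snoRNA genes without a systematic snoRNA name.

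Annotated starts of the 5 hosts with a probe are shown because the pyrimidine run is a sequence feature that noncoding hosts are known for. Each line gives 40 bases before and 30 bases from the start, on the coding strand, from RefSeq promoter sequences of GRCm38.p6. Capitals mark the longest uninterrupted run of C and T within 20 bases on either side of the start.
Snhg16, chr11:116671620-116671689, plus strand: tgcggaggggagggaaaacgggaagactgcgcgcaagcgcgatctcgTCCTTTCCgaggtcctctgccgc
Snhg12, chr4:132308638-132308707, plus strand: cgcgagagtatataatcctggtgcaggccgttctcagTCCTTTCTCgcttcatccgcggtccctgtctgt
Snhg1, chr19:8723447-8723516, plus strand: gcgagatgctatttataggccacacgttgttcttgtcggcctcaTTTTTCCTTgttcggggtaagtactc
Gas5, second annotated start, chr1:161035126-161035195, plus strand: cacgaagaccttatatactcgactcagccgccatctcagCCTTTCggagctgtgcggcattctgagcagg
Snhg11, chr2:158375673-158375742, plus strand: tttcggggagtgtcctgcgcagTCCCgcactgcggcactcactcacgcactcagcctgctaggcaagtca
The marked run need not lie at the first base, so its length does not measure whether a transcript begins with pyrimidines. The 3 hosts with a probe above background differed in the length of the marked run. The run was 8 bases long in Snhg16, a length reached by 16.05% of 32851 promoters read the same way, and 9 bases in Snhg12 and in Snhg1, reached by 10.7%. The run began inside the annotated transcript in Snhg16, at base 8, and in Snhg1, at base 5, and 3 bases before the start in Snhg12. In Snhg11 it was 4 bases and ended before the start, and 78.6% of promoters held a run at least as long. The other starts held runs of 3 bases (the first start of Gas5), 5 bases (Snhg3), 6 bases (the second start of Gas5) and 7 bases (Snhg8), beside a median of 5 over all promoters. Starts of Snhg6 were not analysed here. Over the 300 bases around the start, searched on both strands, TATAAA was found in 3 of the 8 starts against 13.6% of promoters, TATATA in 2 of 8 against 5.67%, and the E-box CACGTG in 0 of 8 against 7.15%.

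Rrn3 itself was lower in the mutants by 0.55 on the log2 scale (SE 0.07, limma adjusted p = 0.152; exact permutation p = 0.00433, the smallest this design allows), at 7.84 ± 0.10 (SD, n = 6) against 8.38 ± 0.11 (n = 5), and the 2 genotypes did not overlap. Whether its probe lies in the deleted part of the gene is not given in the sources used here. At an unadjusted p under 0.001, the level by which Snhg16 was taken as raised, 38 probes or 0.0842% were called in the fit across the whole array, where 45.1 would pass with no effect at all, and 1 probe (of Arsi) or 0.00222% passed after adjustment. Between 19193 and 21889 probes were detected per array, and 10 of the 11 named hippocampal neuron markers were detected. Mean levels of choroid plexus genes ranged from -2.18 to 2.33 (log2, relative to their mean) in the mutants and from -2.08 to 2.11 in the controls, and those of thalamus genes from -0.90 to 1.31 and from -0.98 to 1.99, so that neighbouring tissue varied between sections of both genotypes. Animal numbers fall into the 200s, with 3 mutants and 4 controls, and the 300s, with 3 mutants and 1 control. What these number ranges stand for is not given in the sources used here.

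Of the 8 probes, 5 were above background in all 11 animals (a detection p-value under 0.01), a state that 35.6% of all probes shared. They belong to Snhg16 with 2 probes, Snhg11 with 2 and Snhg12 with 1. The other 3 probes were detected in no animal: another probe of Snhg16, and the only probes of Gas5 and Snhg1. The log2 signals below are after background correction and quantile normalization, and since probes bind with different strength, levels are compared within a probe only.

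Snhg16 was the member that differed most between genotypes. Its probe ILMN_1230176 read 7.005, 7.05, 6.63, 6.51 and 6.95 in controls 1 to 5 (log2 signal). In the 6 mutants the lowest value was 7.27, the median 7.35 and the highest 7.91. All mutants therefore lay above all controls, with mutant 5 highest and controls 3 and 4 lowest. The means were 7.45 ± 0.24 (SD, n = 6) in mutants and 6.83 ± 0.24 (n = 5) in controls, a log2 difference of 0.62 (SE 0.14) or 1.53-fold. Across the array 0.175% of probes had every mutant above every control. Before any correction or scaling between arrays the same probe had intensities of 137 to 225 in the controls and 161 to 382 in the mutants, and these ranges overlapped.

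Snhg16 lay close to the level that had chosen it. Of the 38 probes inside, the only ones nearer to the edge were Ibsp (0.38, log2) and an unnamed probe (0.60). The first named genes outside were Nktr (-0.43), Dcaf11 (-0.32) and Slitrk3 (-0.48). With the authors' deposited log2 values, or with no background correction, the Snhg16 difference was 0.39.

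The second Snhg16 probe, ILMN_1227976, followed the same animals. It read 6.95, 7.01, 6.59, 6.53 and 6.99 in controls 1 to 5, and 6.999, 6.96, 6.68, 7.27, 7.67 and 7.25 in mutants 1 to 6. Controls 3 and 4 were again the lowest controls and mutant 5 the highest mutant, but the genotypes overlapped: mutants 4, 5 and 6 lay above every control and mutants 1, 2 and 3 within the range of the controls. The difference was 0.32 (SE 0.17), from 6.82 ± 0.23 (n = 5) to 7.14 ± 0.34 (n = 6). Over the 11 animals the 2 probes had a correlation of 0.85, and 0.87 after the mean of each genotype was subtracted.

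Mutants 4, 5 and 6 are those numbered in the 300s. Within the 200s, with 3 mutants and 4 controls, the difference was 0.52 (SE 0.15) for ILMN_1230176 and 0.11 (SE 0.15) for ILMN_1227976. Within the 300s, where control 5 is the only control, it was 0.62 (SE 0.28) and 0.41 (SE 0.22). The difference was larger in the 300s than in the 200s by 0.10 for the first probe and by 0.30 for the second (limma interaction). With control 5 as the only control of the 300s, these values cannot show whether the ranges differ. The remaining Snhg16 probe, ILMN_2770148, assigned to the same RefSeq transcript as the first, gave 4.09 to 4.27 in controls and 4.10 to 4.56 in mutants, not above background in any animal, with a lowest detection p-value of 0.0369. No fold was taken from it, and where on the transcript each probe binds is not given in the sources used here.

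**Figure D1:**
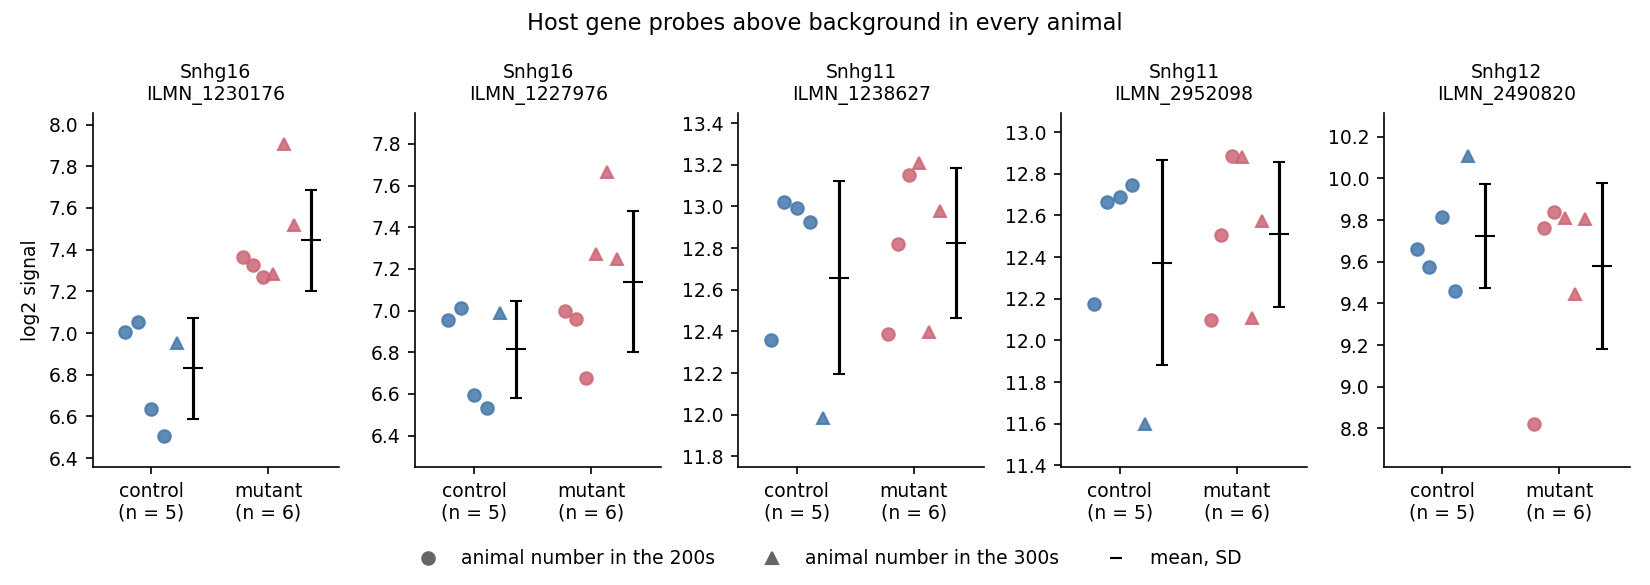
Log2 signal of the 5 host gene probes above background in every animal, one panel per probe, for controls (blue, n = 5) and mutants (red, n = 6), with circles for animal numbers in the 200s, triangles for the 300s, and the mean with SD in black. Only the first Snhg16 panel has mutants (7.27 to 7.91) wholly above controls (6.51 to 7.05), each panel spans the same height in log2 units, and Snhg11 spreads widely in both genotypes.

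Snhg11 did not differ detectably between genotypes. Probe ILMN_1238627 read 12.36, 13.02, 12.99, 12.93 and 11.99 (log2 signal) in controls 1 to 5. In the mutants the lowest value was 12.39, the median 12.90 and the highest 13.21. The genotypes overlapped between 12.39 and 13.02, with controls 1 and 5 below every mutant and mutants 3 and 4 above every control, and the animals fell into low ones, controls 1 and 5 and mutants 1 and 5, and higher ones on both sides. The means were 12.8 ± 0.36 (SD, n = 6) in mutants and 12.7 ± 0.46 (n = 5) in controls. The log2 difference was 0.17 (SE 0.23, 95% interval -0.33 to 0.66, limma p = 0.478, adjusted p = 0.996), and the exact two-sided permutation test gave p = 0.481.

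The second Snhg11 probe, ILMN_2952098, gave nearly the same order of animals, with a correlation of 0.98 between the 2 probes over the 11 animals. It read 12.17, 12.67, 12.69, 12.74 and 11.60 in controls 1 to 5, and had a lowest value of 12.10, a median of 12.54 and a highest of 12.88 in the mutants. Control 5 was again the lowest of all. The difference was 0.13 (SE 0.23, 95% interval -0.37 to 0.64, limma p = 0.572, adjusted p = 0.996; exact permutation p = 0.623). The interval of either probe still holds a rise of the size seen for Snhg16.

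The value of Snhg11 rested on control 5. Without it the differences of the 2 probes were -0.0014 and -0.059, and within the 200s they were -0.038 and -0.071. Within the 300s, against control 5 alone, they were 0.87 and 0.92. The spread of Snhg11 within genotypes (SD 0.41 and 0.42, log2) was larger than that of 83.4% and 84.3% of the 16054 probes detected in all animals, whose median was 0.27.

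Snhg12, the only other of the 8 hosts above background, was also not distinguishable between genotypes. Its probe ILMN_2490820 read 9.66, 9.58, 9.82, 9.46 and 10.1 (log2 signal) in controls 1 to 5. In the mutants the lowest value was 8.82, the median 9.78 and the highest 9.84. Mutant 1 stood below every other animal and control 5 above, and the remaining 9 animals lay between 9.45 and 9.84 in either genotype. The means were 9.58 ± 0.40 (SD, n = 6) in mutants and 9.72 ± 0.25 (n = 5) in controls. The difference was -0.14 (SE 0.19, 95% interval -0.56 to 0.27, limma p = 0.466, adjusted p = 0.996; exact permutation p = 0.580), and without mutant 1 it was 0.0082. Mutant 1 also had the highest mean level of choroid plexus genes of all animals, 2.33. Mutant 4, at 2.17, read 9.81 for Snhg12, and control 4, at 2.11, read 9.46. At low choroid plexus levels, mutant 5, at -1.86, read 9.45 and control 5, at -2.08, read 10.1. Over the 11 animals Snhg12 and the choroid plexus level had a Pearson's r of -0.49 (permutation p = 0.118, adjusted p = 0.487) and a Spearman's rho of -0.42 (permutation p = 0.202, adjusted p = 0.645), with r at -0.24 without the 2 animals farthest from the median choroid plexus level and -0.63 within the 7 animals of the 200s. Choroid plexus was not alone in this. With endothelial and mural cell markers r was -0.17 over the 11 animals. It was -0.77 without the 2 animals farthest from the median of those markers, and -0.89 within the 200s.

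**Figure D2:**
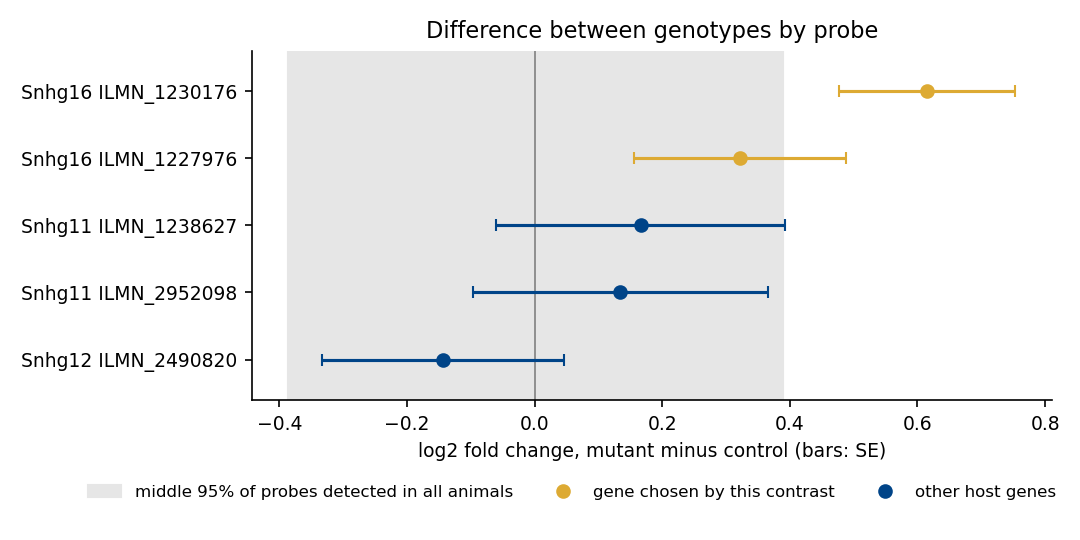
Log2 fold change of mutant minus control for the same 5 probes (points, bars are SE), with the range holding the middle 95% of the probes detected in all animals in grey (-0.39 to 0.39). The first Snhg16 probe (0.62) lies outside the grey range and was chosen by this contrast, and the second (0.32) and those of Snhg11 (0.17, 0.13) and Snhg12 (-0.14) lie inside it.

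Of the 3 tested probes of Snhg11 and Snhg12, 0 passed an unadjusted p under 0.05 in limma, a level that 3.95% of all probes passed. Gas5, a growth-arrest transcript whose introns carry box C/D guides, was not measurable here: its probe ILMN_2680850 gave 4.12 to 4.52 in controls and 4.18 to 4.71 in mutants, with a lowest detection p-value of 0.0115, in mutant 5. The Snhg1 probe ILMN_1258231 gave 4.08 to 4.30 and 4.08 to 4.20, with a lowest detection p-value of 0.249. A probe at background does not show that its transcript is absent, and no fold was taken for either gene.

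The 3 measured hosts showed no common pattern across animals. Snhg16 (ILMN_1230176) had a correlation of -0.12 with Snhg11 (ILMN_1238627) and of -0.20 with Snhg12 over the 11 animals, and Snhg11 with Snhg12 of 0.15. After the mean of each genotype was subtracted, these were -0.53, -0.02 and 0.21. Control 5 illustrates the point, being the lowest animal for Snhg11 and the highest for Snhg12, while mutant 5 was the highest for Snhg16 and among the low animals for Snhg11. These correlations share the same arrays and are given as a description.

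**Figure D3:**
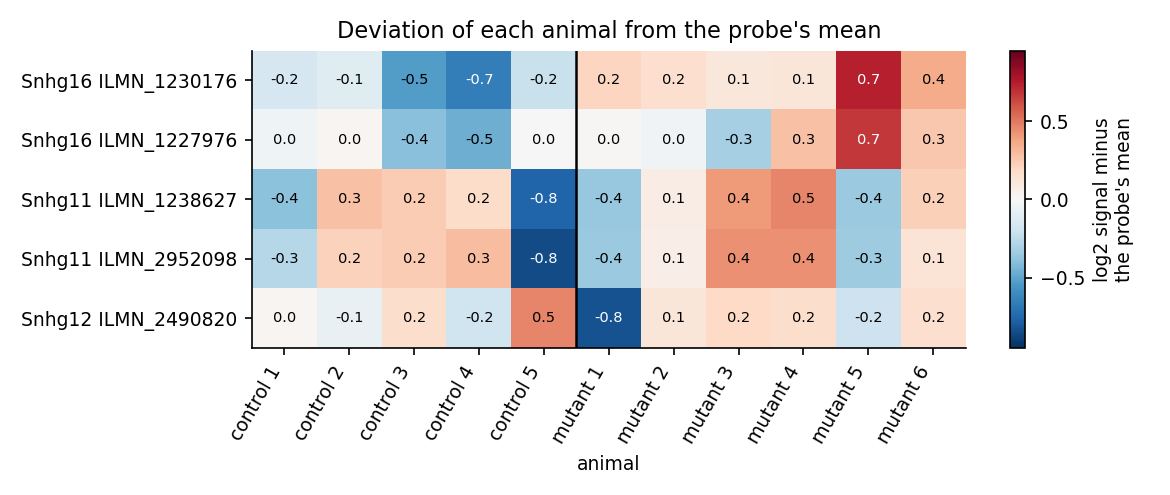
Log2 signal of each animal minus the mean of the probe over the 11 animals, for the 5 host gene probes above background (rows) in controls 1 to 5 and mutants 1 to 6 (columns, separated by the line), red for higher and blue for lower. Probes of 1 gene share their pattern, with a correlation of 0.85 for Snhg16 and 0.98 for Snhg11, while the 3 genes do not share theirs.

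The genes whose pattern was most like that of each host were taken from 9505 named genes detected in all animals, by Pearson correlation with the host's brightest probe over the 11 animals. For Snhg16 these were Mrpl40, a mitochondrial ribosomal protein (0.88), Amn (0.88) and Acot8, a peroxisomal thioesterase (0.87). For Snhg11 they were Gtf3c2, a subunit of the RNA polymerase III factor TFIIIC (0.95), Stxbp2, a syntaxin-binding protein (0.93), and 6330415B21Rik (0.93), and 12 genes exceeded 0.9. For Snhg12 they were Tlcd1 (0.85), Ubxn6 (0.82) and Fam20a (0.81), and none exceeded 0.9 (0 of 9505). Since part of the likeness to Snhg16 comes from the genotype, its 3 correlations were also taken after subtraction of the genotype means, and were 0.72, 0.78 and 0.77.

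Relations of the 3 hosts to the mean levels of 8 cell type and tissue marker lists were also examined, 24 in all. The one with the smallest p was Snhg11 against the hippocampal neuron markers, where the signal was lower in animals with more of these markers: Pearson's r was -0.61 (permutation p = 0.0430, adjusted p = 0.487) and Spearman's rho -0.44 (permutation p = 0.182, adjusted p = 0.645) over 11 animals. Without the 2 animals farthest from the median of the marker level r was -0.49, and within the 7 animals of the 200s -0.46. None of the 24 passed an adjusted p of 0.05, with the difference between genotypes left in. After subtraction of the genotype means, r for Snhg16 was -0.71 with thalamus and -0.69 with oligodendrocyte markers. It was -0.65 with endothelial and mural cell and -0.62 with choroid plexus markers. With the other lists it was positive, at most 0.48 for the hippocampal neuron markers. These centred correlations were not tested.

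Other host genes of small RNAs were next set beside these genes, from lists chosen with earlier results of these data known, each gene at its brightest probe and detected in at least 5 animals. Of the 7 other noncoding hosts of small RNAs detected, 0 passed an unadjusted p under 0.05 in limma in either direction, beside 5.30% of the 11463 genes tested this way, and their values lay between -0.07 and 0.12 (median 0.05, log2). The smallest p values belonged to Snurf, at the head of the imprinted locus that carries large snoRNA clusters (-0.07, SE 0.06), and Mir17hg, which carries microRNAs rather than snoRNAs and gave the upper end of that range (0.12, SE 0.14). Mir17hg was at 0.0049 without control 5, and at 0.24 with the animal number range as a block, where it passed an unadjusted p of 0.05. Snhg10 gave 0.05 (SE 0.16) and Snhg18 0.08 (SE 0.15). The imprinted hosts Meg3 and Rian were at 0.05 (SE 0.35) and 0.01 (SE 0.38), with wide spread between animals.

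Of the 22 protein-coding hosts detected, 0 passed in either direction at their brightest probe, against the same 5.30% of genes, a count that at this number of genes does not set them apart, with a median of -0.01 beside 0.01 for all genes. The largest differences were those of Eef2, the translocation factor of translation (-0.27, SE 0.13, with dimmer probes at -0.08 and -0.28), and Rps3, a ribosomal protein of the small subunit (-0.23, SE 0.16). The dimmest Eef2 probe, ILMN_1252294, was by itself past an unadjusted p of 0.05, and the brightest was so without control 4, mutant 1 or mutant 2 (-0.33 to -0.32) and within the 300s (-0.70), but was at -0.03 within the 200s. Eif4a2, an initiation helicase, was at -0.20 (SE 0.12) and at -0.095 without control 2. Ribosomal proteins that host snoRNAs lay on both sides of 0, with Rpl12 at 0.17 (SE 0.10) and Rpl4 at -0.18 (SE 0.11).

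Few snoRNAs themselves have a probe. Snora65 was read by 2 probes, at 7.71 ± 0.18 in mutants and 7.67 ± 0.19 in controls for the brighter, a difference of 0.04 (SE 0.11). Snord123 gave -0.04 (SE 0.15) and Snora70 0.05 (SE 0.21), and all 3 differences were smaller than their SE. The column used for extraction recovers short RNAs poorly, and whether these probes read the snoRNA or a longer transcript around it was not tested. None of the 3 is among the named snoRNA genes within the 8 hosts.

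Proteins that bind, assemble and release snoRNAs are the remaining part of the pathway. The core proteins stay with the snoRNA in the finished particle, and 0 of 6 detected passed, beside 5.30% of genes, with Snu13, which binds the kink-turn of box C/D RNAs, at -0.31 (SE 0.22) and Nhp2, an H/ACA protein, at -0.19 (SE 0.16). Snu13 was at -0.17 without mutant 3, and at -0.46 without mutant 5, where it passed that level.

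Among the assembly and traffic factors, 4 of 13 were higher in the mutants at an unadjusted p under 0.05 and 0 lower, where 3.11% of the 11463 genes were higher, with a median of 0.13. After adjustment over all probes 0 of 13 passed. Nufip1, the scaffold of box C/D assembly, differed by 0.41 (SE 0.12, limma p = 0.00536; exact permutation p = 0.0173), from 4.60 ± 0.22 (n = 5) to 5.01 ± 0.19 (n = 6), at a dim probe detected in 7 of 11 animals. With the authors' deposited values it differed by 0.12, and without background correction by 0.11. Rpap3, a subunit of the R2TP cochaperone, differed by 0.39 (SE 0.16, limma p = 0.0289; exact permutation p = 0.0433), and its second probe by 0.53 (SE 0.19). The other 2, named after their values were seen, were Shq1, the chaperone of the H/ACA pseudouridine synthase (0.33, SE 0.14; exact permutation p = 0.0693), and Znhit6, another box C/D assembly factor (0.32, SE 0.14; exact permutation p = 0.0649). The Shq1 probe was dim, at 4.88 in mutants and 4.55 in controls, and detected in 8 of 11 animals. With the authors' deposited values (0.097) or without background correction (0.10), Shq1 no longer passed an unadjusted p of 0.05. Nor did it pass where only probes detected in at least 5 animals were tested, or with the animal number range as a block. The second probes of Nufip1 and Znhit6 were detected in 0 and 3 animals and gave 0.01 and -0.27. Several factors were lower or level, such as Tgs1, a cap methyltransferase (-0.23, SE 0.18), and Ruvbl1 (0.01, SE 0.11). The count of 4 was 1 without control 5, 2 without control 3, mutant 4 or mutant 6, and 0 within the 200s alone. Only Nufip1 had an unadjusted p under 0.05 in each of the 11 fits that left out 1 animal. The exact tests of the 4 higher genes were run because their limma p was small in the same values, and are not separate support.

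Nonsense-mediated decay, the route by which spliced host transcripts are degraded, had 1 of 12 detected factors higher and 1 lower at an unadjusted p under 0.05, beside 5.30% of all genes in either direction. Smg8, a regulator of the kinase Smg1, was higher by 0.57 (SE 0.12, limma p = 0.000655, adjusted p = 0.996; exact permutation p = 0.00433), from 4.91 ± 0.27 (n = 5) to 5.49 ± 0.15 (n = 6), at a dim probe detected in 10 of 11 animals. With the authors' deposited values the difference was 0.19, and its limma p of 0.0011 was no longer under 0.001. Of the 11 fits that left out 1 animal, 4 kept a limma p under 0.001 and all 11 kept one under 0.05. Its 2 further probes were detected in no animal. Upf1, the central helicase of the pathway, named after its value was seen, was lower by 0.29 on the log2 scale (SE 0.13, limma p = 0.0423, adjusted p = 0.996; exact permutation p = 0.0519). Its 2 further probes were at -0.11 (SE 0.11) and -0.37 (SE 0.15). The exact tests of Smg8 and Upf1 were run because their limma p was small in the same values, and are not separate support. The Upf1 call was lost when any 1 of mutants 1, 2, 3, 4 and 6 or controls 1, 2, 4 and 5 was left out, with values of -0.31 to -0.23.

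Intron release and debranching, the step that frees the snoRNA from the lariat, had 0 of 10 detected genes past the same level, beside 5.30% of genes. Aqr, the helicase that ties splicing to box C/D assembly, was at 0.36 (SE 0.25), with its further probes detected in all animals at 0.19 and -0.08. Its brightest probe was at 0.21 without control 5 and 0.54 without mutant 1, where it passed an unadjusted p of 0.05, and at 0.0036 within the 200s and 1.17 within the 300s, where it passed again. Dhx15, which takes the spliceosome apart, was at 0.14 (SE 0.10), with its other probe, also detected in all animals, at 0.01 (SE 0.10). Its brightest probe passed an unadjusted p of 0.05 with the animal number range as a block (0.20), and was at 0.27 within the 300s. Dbr1, the debranching enzyme itself, was at -0.03 (SE 0.10).

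**Figure D4:**
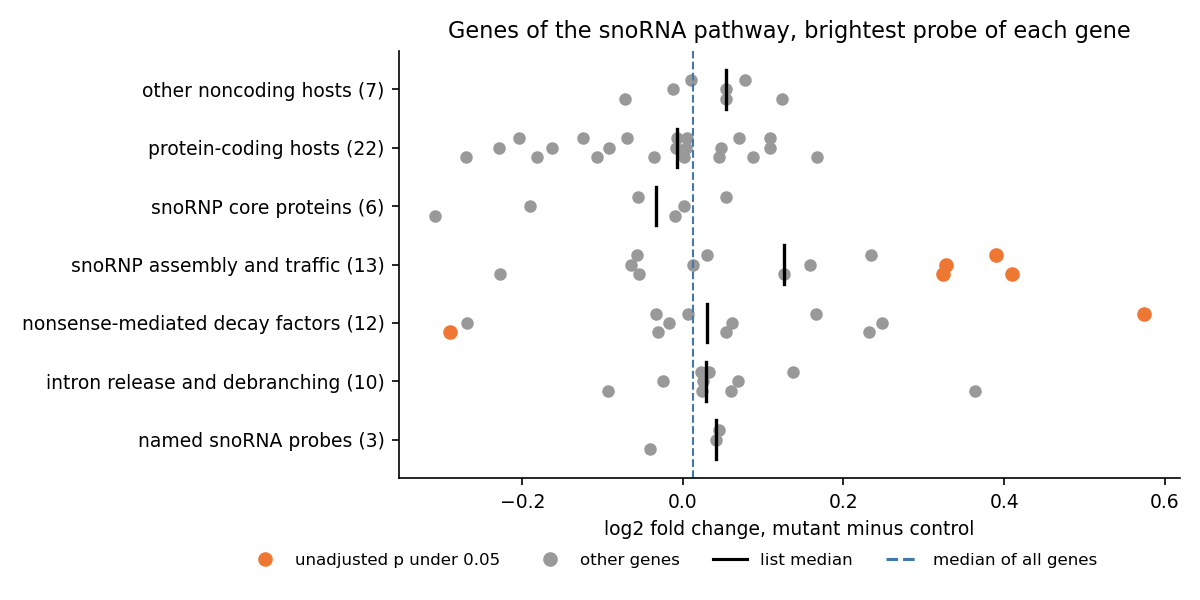
Log2 fold change of mutant minus control for each detected gene of the host, snoRNA, snoRNP, decay and splicing lists at its brightest probe (points, number of genes in parentheses), orange where the unadjusted p was under 0.05, with the median of each list in black and that of all genes (0.01) dashed. Orange points are 4 of 13 assembly factors, all higher, and 2 of 12 decay factors, Smg8 higher and Upf1 lower.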

How the data were processed

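Total hippocampal RNA was profiled by the authors on Illumina MouseWG-6 v2 BeadChips. The deposited table gives each of 12 arrays an intensity per probe, on a linear scale without background subtraction or scaling, and a detection p-value. The authors also deposited log2 values of the same arrays, used as an alternative. According to the methods, the authors subtracted background, normalized by quantiles, took log2 and used limma.

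From the intensities, 954 lines without a probe name were left out. The remaining 45135 probes were corrected by normexp on the detection p-values (neqc, offset 16), quantile normalized and fitted with limma 3.58.1 in R 4.3.3 as mutant minus control, with Benjamini-Hochberg adjustment over all probes. A probe was detected at a detection p-value under 0.01. Exact two-sided permutation tests over animals used scipy 1.17.1. For genes of the lists they were run only where the limma p was under 0.05. Fits were tested on simulated data. Gene names came from the platform annotation, and sequences and positions from RefSeq (GRCm38.p6). On arrays the number of animals limits the precision. Limma p-values set the genotype difference against the spread between these animals, estimated with help from all probes. Exact p-values set it against the other ways to assign the animals to genotypes.

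Members and lists were chosen with earlier results of these data known. All member probes and Rrn3 are named. From each list, genes at an unadjusted p under 0.001 or else the 2 with the smallest p are named, together with every detected snoRNA probe and the 3 genes most like each host. Rps3, Rpl12, Rpl4, Snhg10, Snhg18, Meg3, Rian, Tgs1, Ruvbl1 and Dbr1 were added after their values were seen.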

Additional observations from a re-analysis of the deposited data

Results flagged for a closer look

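Each of the 8 probes was looked at in each genotype, and signals of 3 groups held an animal far from the rest. The share over all probes was not computed, so this count cannot be set against chance. All 3 were at probes not above background: control 2 at 4.27 and mutant 1 at 4.56 (log2 signal) for the undetected Snhg16 probe ILMN_2770148, and control 5 at 4.52 for Gas5. For the Snhg11 probe ILMN_2952098 the difference between genotypes was larger in the 300s than in the 200s by 0.99 (log2, limma interaction, past an unadjusted level of 0.05, adjusted p = 1.00 over all probes), with 0.92 against -0.07, and the 300s hold control 5 as their only control. The other Snhg11 probe gave 0.91 for the same term, which did not pass that level.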

How the results depend on the processing

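Differences of the 5 detected host probes kept their sign under every alternative run, with these exceptions. Snhg11 turned to -0.038 and -0.071 within the 200s and to -0.0014 and -0.059 without control 5, and Snhg12 to 0.0082 without mutant 1. Over fits leaving out 1 animal, Snhg16 spanned 0.52 to 0.67 and 0.22 to 0.41 at its 2 probes, Snhg11 -0.0014 to 0.26 and -0.059 to 0.23, and Snhg12 -0.21 to 0.0082. No alternative brought Snhg11 or Snhg12 past an unadjusted p of 0.05. The 38 probes under an unadjusted p of 0.001 were 11 where only probes detected in at least 5 animals were tested, 22 within the 300s, and 31 to 51 without single animals. The 4 higher assembly factors were 2 with that probe filter, 0 within the 200s, 2 within the 300s and 1 to 4 without single animals. Snurf turned to 0.055 within the 300s. Alternatives for genes of the lists were chosen after seeing the data. With the animal number range as a block, Snhg16 was at 0.55 and 0.20, Snhg11 at 0.24 and 0.23, and Snhg12 at -0.23. Replicate numbers were shared by both genotypes, but same-numbered animals did not deviate together throughout (correlations of -0.06 to 0.61, 3 of 5 best with their own number). With the replicate number as a block, Snhg16 was at 0.60 and 0.30, Snhg11 at 0.14 and 0.12, Snhg12 at -0.19, and 39 probes passed. Rpap3 (0.34) and Znhit6 (0.32) then no longer passed an unadjusted p of 0.05. With the deposited values Snhg16 was at 0.39 and 0.20. Without background correction it was also at 0.39 and 0.20, so the larger values came with the background correction used here. The cause of the lower deposited values was not tested.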
